A study of Mus musculus with 24 samples.

Results

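Gpx3, Prl2c2 and Il1rl1 encode 3 proteins that act at or outside the cell surface, and they are 3 of the 24825 genes listed for cells in which Nfia was targeted by Cre and NFIA was then put back. They were chosen from their measured values. Each was among the genes that stood highest in Cre against ctrl at day 7, among those that stood lowest in Cre + NFIA against Cre at day 7, or both. Day 7 levels of these groups are therefore given as a description with no test, while levels at day 0, which the choice did not use, were tested. The cells were ingSVF cells, the stromal vascular fraction of inguinal white fat, taken from mice whose Nfia exon 2 lies between loxP sites and immortalised with SV40 large T antigen. All 4 cell types share this floxed background and the large T antigen. The ctrl cells carried an empty retroviral vector, the Cre cells a retrovirus for Cre recombinase, the Cre + NFIA cells Cre and 3xFLAG-tagged full-length NFIA, and the Cre + NFIA Δpro#3 cells Cre and a tagged NFIA that lacks pro#3, the part of its proline-rich domain at the C-terminal end. Samples were taken before (day 0) and 7 days into differentiation with a cocktail for thermogenic adipocytes. Each group had 3 replicates, giving 24 RNA-seq libraries in 8 groups. NFIA was put back as a transgene. The age of the mice and whether replicates were separate cultures are not given in the sources used here, so p-values measure the spread between these libraries, which may be technical.

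Gpx3 is glutathione peroxidase 3, a selenium-containing enzyme that is secreted and uses glutathione to reduce hydrogen peroxide and lipid peroxides outside the cell. Prl2c2 is proliferin, a secreted hormone of the prolactin family, known from the placenta and as a gene that mouse fibroblasts switch on when growth factors stimulate them. It binds the cation-independent mannose 6-phosphate receptor, Igf2r. Il1rl1 is ST2, the receptor for interleukin 33. Its full-length membrane form pairs with Il1rap and signals through MyD88 and IRAK kinases to NF-kB and AP-1, and a shorter secreted form binds interleukin 33 as a decoy. In fat, ST2 is best known on regulatory T cells and type 2 innate lymphoid cells, and it was first found in growth-stimulated fibroblasts.

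The genes lie on separate chromosomes. On NCBIM37, the assembly that mm9 names, GENCODE vM1 places the protein-coding gene Gpx3 at chr11:54715955-54723879 on the plus strand, Prl2c2 at chr13:13088393-13097659 on the minus strand and Il1rl1 at chr1:40486415-40522260 on the plus strand. The gene lengths used for FPKM were 1618, 790 and 7096 bases. The Il1rl1 value covers the whole gene, so transcripts of the membrane and the secreted form cannot be told apart. RefSeq promoter entries, on the build GRCm38.p6, were found for 2 of the 3 genes, Gpx3 and Il1rl1, and none for Prl2c2. They are shown because NFI proteins bind the letters TTGGC, read on either strand, and bind more tightly the palindrome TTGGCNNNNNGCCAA. The capitals mark matches to these letters on either strand in the 250 bases before each start, written 5′ to 3′ on the gene's strand.
Gpx3, GRCm38.p6, chr11:54902604-54902853, plus strand: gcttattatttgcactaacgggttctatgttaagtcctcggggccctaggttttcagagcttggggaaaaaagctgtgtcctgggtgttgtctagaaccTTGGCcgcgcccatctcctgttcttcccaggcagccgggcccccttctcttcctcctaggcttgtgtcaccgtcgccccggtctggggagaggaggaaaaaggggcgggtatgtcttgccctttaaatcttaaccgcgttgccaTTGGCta
Il1rl1, first start, GRCm38.p6, chr1:40429320-40429569, plus strand: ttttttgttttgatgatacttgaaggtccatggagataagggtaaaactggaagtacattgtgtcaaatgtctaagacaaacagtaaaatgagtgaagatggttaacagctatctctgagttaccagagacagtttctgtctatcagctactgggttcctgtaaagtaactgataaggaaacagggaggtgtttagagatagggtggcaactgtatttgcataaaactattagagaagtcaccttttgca
Il1rl1, second start, GRCm38.p6, chr1:40439379-40439628, plus strand: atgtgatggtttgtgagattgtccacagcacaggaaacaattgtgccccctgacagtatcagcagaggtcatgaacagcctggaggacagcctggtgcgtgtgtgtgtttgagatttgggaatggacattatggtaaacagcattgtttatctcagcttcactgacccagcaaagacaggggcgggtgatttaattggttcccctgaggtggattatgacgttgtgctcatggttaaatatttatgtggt

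The Gpx3 stretch held TTGGC 2 times on the gene's own strand, beginning at positions 100 and 244 of the stretch, and neither Il1rl1 stretch held one. On either strand 41.5% of the 32851 promoter stretches of the same length held these letters, so a match is common. The full palindrome was in 0.0365% of them. The AP-1 motif TGANTCA was in 6.75% and the TATA box letters TATAAA in 12.4%, each searched on both strands, and none of these 3 motifs was in any of the printed stretches. The G and C content was 55.2% for Gpx3, 37.6% and 46.4% for the Il1rl1 starts, and 52.4% in the median stretch. A match is only a match of letters in this window.

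Prl2c2 has near-identical relatives, which bears on every Prl2c2 value. The GENCODE vM1 transcripts of Prl2c2 and Prl2c3 were both 850 bases long and differed at 4 of them (99.53% identity), 3 of these in the 675 coding bases, and their longest identical stretch was 465 bases. Against Prl2c5 the coding identity was 96.15%, counting gaps as differences. Of the 50-base words of the Prl2c2 transcript, 88.5% also occurred in a transcript of another gene (Prl2c1, Prl2c3 or Prl2c5), and of the 100-base words 65.5%. Since the authors kept only reads that aligned to 1 place, the Prl2c2 value rests on reads that cover the few telling bases and is uncertain as a level. The 60 coding bases printed next, from exon 4 on NCBIM37, hold 5 positions at which the genes differ, 1 of them between Prl2c2 and Prl2c3. Among stretches within 1 exon that hold a Prl2c2 and Prl2c3 difference, this one was picked for the most differences, so it is not typical. Capitals mark those positions.
Prl2c2, chr13:13089674-13089733, minus strand: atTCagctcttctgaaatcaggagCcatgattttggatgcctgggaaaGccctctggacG
Prl2c3, chr13:12884381-12884440, minus strand: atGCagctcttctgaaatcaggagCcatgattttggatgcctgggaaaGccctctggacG
Prl2c5, chr13:13282854-13282913, plus strand: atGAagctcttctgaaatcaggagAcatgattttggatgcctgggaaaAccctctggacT

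Levels are in FPKM, read numbers scaled to gene length and to the library total, so that they can be compared between genes. Totals recovered from the FPKM values were 7.73 to 14.6 M reads (M, 1000000) a library, and 3 reads, the lowest amount taken as shown, were 0.205 to 0.388 reads per M, a floor that covers counting error only. The 3 genes were far above it, with at least 219 reads for Gpx3, 94 for Prl2c2 and 263 for Il1rl1 in every library. Nfia itself had a day 0 mean of 6.47 FPKM in ctrl, against 6.21 FPKM in the libraries labelled Cre, and the day 7 means were 9.55 and 10.1 FPKM. A value over the whole gene was therefore no lower with Cre at day 7, and it does not separate the floxed exon from the others. For Cre-expressing cells the paper reports efficient recombination by genomic PCR. It also reports near-complete loss of NFIA mRNA by RT-qPCR and of the protein by western blot. With the transgenes it was 60.7 to 102 FPKM. Immune cells that carry ST2 were looked for through 16 marker genes of mast cells, type 2 innate lymphoid cells, regulatory T cells and macrophages, of which 5 were at 0 in all libraries and 10 never reached 1 FPKM, and their summed level was 8.82 to 15.3 FPKM in every group.

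Gpx3 stood higher in each cell type that carried Cre than in ctrl, on both days. At day 0 ctrl libraries held 24.3, 19.3 and 21.2 FPKM. Libraries labelled Cre held 41.1, 47.1 and 44.5 FPKM, Cre + NFIA libraries 62.2, 67.2 and 66.8 FPKM, and Cre + NFIA Δpro#3 libraries 51.4, 51.0 and 50.9 FPKM. No group overlapped another, and Cre + NFIA was the highest. Between pairs of groups at day 0, 20% to 46.5% of all genes did not overlap, in either direction. At day 7 ctrl held 14.6, 12.9 and 12.1 FPKM and Cre held 92.9, 77.9 and 87.4 FPKM. Cre + NFIA held 47.2, 46.3 and 51.2 FPKM and Cre + NFIA Δpro#3 held 138, 178 and 133 FPKM. Here the mutant was the highest and full-length NFIA came between ctrl and Cre, again with no overlap between groups. At day 7 the share of all genes without overlap was 32.8% to 72.8% between pairs of groups.

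Prl2c2 was lowest in the cells given the full-length NFIA transgene, on both days. At day 0 ctrl held 44.9, 31.5 and 33.6 FPKM, and Cre held 51.4, 44.2 and 44.2 FPKM. Cre + NFIA held 13.3, 13.1 and 17.1 FPKM, against 49.9, 48.8 and 58.1 FPKM in Cre + NFIA Δpro#3. The Cre + NFIA libraries were below all others, while the other groups lay close to each other. At day 7 ctrl held 17.4, 13.5 and 13.7 FPKM and Cre 73.0, 58.4 and 90.8 FPKM. Cre + NFIA held 9.14, 9.55 and 11.2 FPKM and Cre + NFIA Δpro#3 85.4, 69.9 and 73.9 FPKM. Cre and Cre + NFIA Δpro#3 overlapped and lay above ctrl, and Cre + NFIA lay below it. Between pairs of groups, 20% to 46.5% of all genes did not overlap at day 0, and 32.8% to 72.8% at day 7.

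Il1rl1 was likewise lowest with the full-length NFIA transgene on both days. At day 0 ctrl held 30.1, 38.5 and 29.5 FPKM and Cre 46.3, 43.9 and 39.8 FPKM. Cre + NFIA held 11.6, 12.8 and 13.2 FPKM and Cre + NFIA Δpro#3 32.5, 31.8 and 37.2 FPKM. At day 7 the ctrl libraries held 8.53, 6.0 and 6.49 FPKM, and Cre held 25.2, 20.2 and 31.9 FPKM. Cre + NFIA was lowest and Cre + NFIA Δpro#3 highest at day 7, with no overlap between any of the 4 groups. The former held 2.76, 3.41 and 3.37 FPKM and the latter 46.7, 36.6 and 42.9 FPKM. Between pairs of groups at day 7, 32.8% to 72.8% of all genes did not overlap. The share of genes without overlap among all 4 groups at once was not computed.

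**Figure D1:**
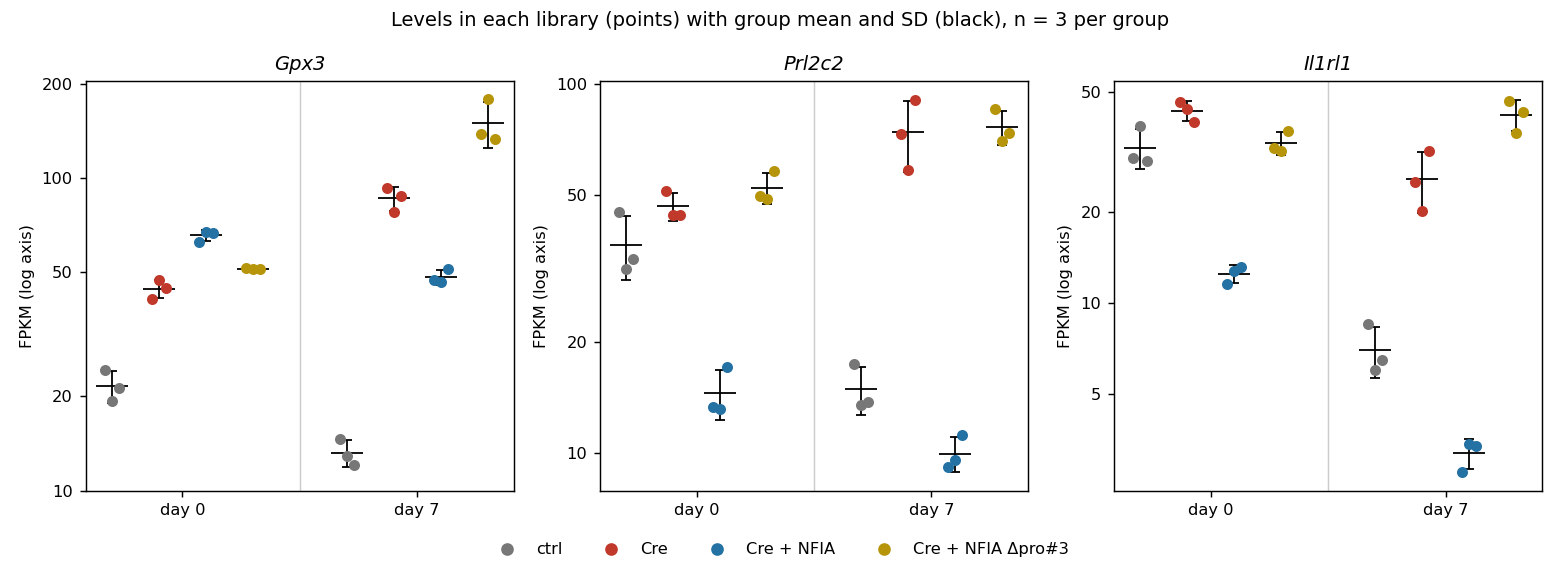
FPKM (log axis) of Gpx3, Prl2c2 and Il1rl1 in each of the 24 libraries, by cell type and day; points are libraries, black marks the mean and SD of 3 replicates. At day 7 Il1rl1 spans 2.76 FPKM in Cre + NFIA to 46.7 FPKM in Cre + NFIA Δpro#3, and Gpx3 12.1 FPKM in ctrl to 178 FPKM in Cre + NFIA Δpro#3.

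Over all 8 groups the mean Gpx3 level ran from 13.2 ± 1.31 FPKM (SD, n = 3) in ctrl at day 7 through 21.6 ± 2.54 in ctrl at day 0, 44.2 ± 3.02 in Cre at day 0, 48.2 ± 2.65 in Cre + NFIA at day 7, 51.1 ± 0.235 in Cre + NFIA Δpro#3 at day 0, 65.4 ± 2.79 in Cre + NFIA at day 0 and 86.0 ± 7.55 in Cre at day 7 to 149 ± 24.9 in Cre + NFIA Δpro#3 at day 7. Of the neighbours in this order, Cre at day 0 and Cre + NFIA at day 7 overlapped, as did Cre + NFIA at day 7 and the mutant at day 0. The Prl2c2 means ran from 9.95 ± 1.07 FPKM in Cre + NFIA at day 7 through 14.5 ± 2.25 in Cre + NFIA at day 0 and 14.9 ± 2.20 in ctrl at day 7, which overlapped, then 36.7 ± 7.22 in ctrl, 46.6 ± 4.18 in Cre and 52.3 ± 5.07 in the mutant at day 0, which overlapped in turn, to 74.1 ± 16.2 in Cre and 76.4 ± 8.02 in the mutant at day 7, which overlapped. The Il1rl1 means ran from 3.18 ± 0.367 FPKM in Cre + NFIA at day 7 through 7.01 ± 1.34 in ctrl at day 7, 12.5 ± 0.841 in Cre + NFIA at day 0 and 25.8 ± 5.86 in Cre at day 7 to 32.7 ± 5.0 in ctrl at day 0, 33.8 ± 2.92 in the mutant at day 0, 42.1 ± 5.07 in the mutant at day 7 and 43.3 ± 3.25 in Cre at day 0. The groups from Cre at day 7 upward in that Il1rl1 order each overlapped their neighbour.

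At day 0, before differentiation, Gpx3 alone of the 3 genes passed the test in Cre against ctrl. Differences were tested with limma on log2(FPKM + 1) over 12640 genes, and a gene passed at a Benjamini-Hochberg adjusted p under 0.05. Fold changes given for single genes are ratios of mean FPKM. Log2 differences, and counts of genes changed at least 3-fold, use the log2(FPKM + 1) scale, which understates the change of low genes. Gpx3 was 2.05-fold higher in Cre than in ctrl (log2 difference 1.00 ± 0.076 SE, n = 3 each, limma adjusted p = 9.91e-05) and was the gene with the order number 19 from the top. For Prl2c2 the log2 difference was 0.35 with a 95% interval of 0.05 to 0.66 (limma adjusted p = 0.185), and for Il1rl1 it was 0.40, with an interval of 0.18 to 0.63 (limma adjusted p = 0.0604). Of all genes tested 3.33% passed, so 1 of the 3 genes passed in a comparison where few genes did. The Il1rl1 difference passed when ctrl replicate 2 was left out (log2 0.52, limma adjusted p = 0.0169).

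With full-length NFIA, Prl2c2 and Il1rl1 were lower and Gpx3 higher at day 0. Against Cre, Prl2c2 was 3.21-fold lower (log2 -1.62, 95% interval -1.93 to -1.32, limma adjusted p = 1.31e-05) and Il1rl1 3.46-fold lower (log2 -1.71, 95% interval -1.94 to -1.48, limma adjusted p = 1.31e-06). They stood at order numbers 18 and 12 from the lowest of the 12640 genes. Gpx3 was 1.48-fold higher (log2 0.56 ± 0.076 SE, limma adjusted p = 0.000327). Of all genes 27.6% passed. Against ctrl the picture was alike in direction, with Prl2c2 at log2 -1.27 (limma adjusted p = 6.74e-05), Il1rl1 at log2 -1.31 (limma adjusted p = 7.13e-06) and Gpx3 at log2 1.56 (limma adjusted p = 2.51e-07), where 33.1% of all genes passed. The comparisons share libraries and are not independent of each other.

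With the Δpro#3 mutant Prl2c2 stood near its Cre level at day 0. Against Cre the log2 difference of Prl2c2 was 0.16 with a 95% interval of -0.14 to 0.47 (limma adjusted p = 0.477), and that of Gpx3 0.21 with an interval of 0.04 to 0.37 (limma adjusted p = 0.0857). Il1rl1 fell by 0.35 on the log2 scale (limma adjusted p = 0.0382) where 18.3% of all genes passed, a call that was lost when any of 4 libraries, Cre replicate 1 or 2 or mutant replicate 1 or 2, was left out (limma adjusted p = 0.0956 to 0.127 without them). Between the mutant and full-length NFIA, where 10.1% of all genes passed, Prl2c2 was 3.60-fold higher with the mutant (log2 1.78 ± 0.138 SE, limma adjusted p = 1.56e-05) and Il1rl1 2.70-fold higher (log2 1.36 ± 0.103 SE, limma adjusted p = 1.31e-05), at order numbers 2 and 10 from the highest. Gpx3 was lower with the mutant (log2 -0.35, limma adjusted p = 0.0134), and not past the threshold when replicate 2 or replicate 3 of Cre + NFIA was left out (limma adjusted p = 0.0558 and 0.0525). Against ctrl, where 30.4% of all genes passed, the mutant was higher for Gpx3 (log2 1.21, limma adjusted p = 2.9e-06) and Prl2c2 (log2 0.51, limma adjusted p = 0.0174), and the Il1rl1 difference was 0.05 with a 95% interval of -0.17 to 0.28 (limma adjusted p = 0.736). The Prl2c2 call was lost without ctrl replicate 2, ctrl replicate 3 or mutant replicate 3 (limma adjusted p = 0.0645, 0.0549 and 0.0682).

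**Figure D2:**
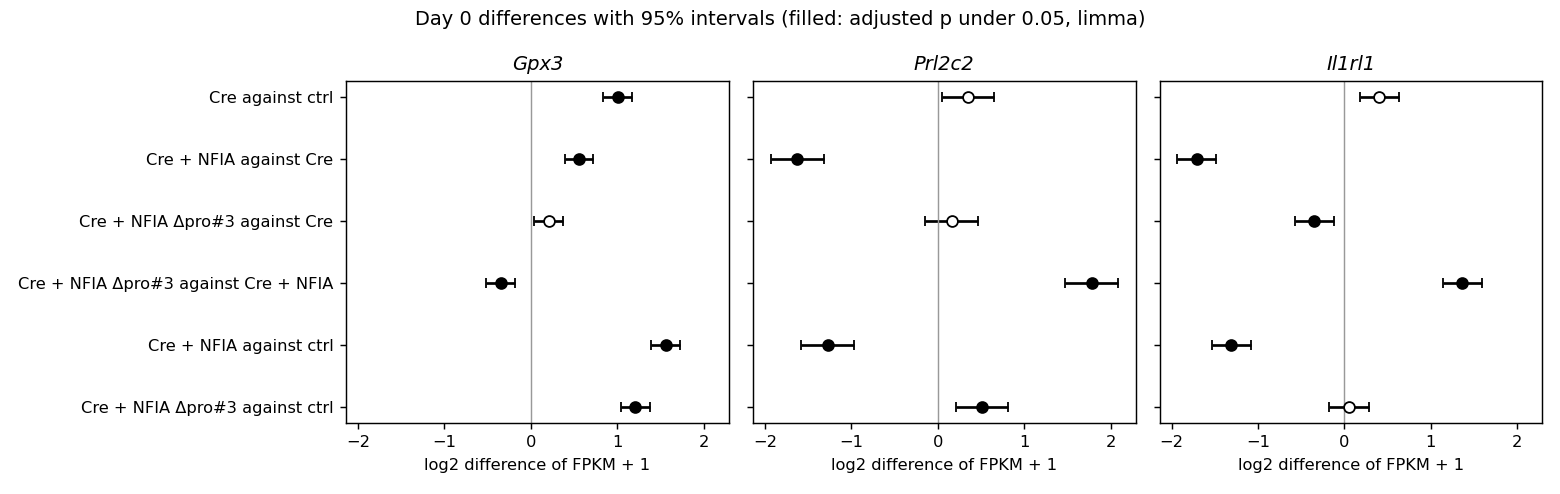
Differences of Gpx3, Prl2c2 and Il1rl1 at day 0 on the log2(FPKM + 1) scale (x axis) for 6 comparisons of cell types, with 95% intervals from limma; filled points passed the threshold. Prl2c2 (log2 -1.62) and Il1rl1 (log2 -1.71) lie left of 0 and Gpx3 (log2 0.56) right of 0 in Cre + NFIA against Cre.

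At day 7 the values that chose the genes were as follows, with no test. In Cre against ctrl Gpx3 was 6.51-fold higher (log2 2.62), Prl2c2 4.98-fold (log2 2.23) and Il1rl1 3.68-fold (log2 1.73). They took the order numbers 1, 3 and 16 from the highest. The genes beside them in that order were Grem1, which encodes the BMP antagonist gremlin 1 (log2 2.27), and Gpnmb, a transmembrane glycoprotein (log2 2.22), around Prl2c2, and Pamr1 (log2 1.72) just after Il1rl1. In Cre + NFIA against Cre Prl2c2 was 7.44-fold lower (log2 -2.76) and Il1rl1 8.10-fold lower (log2 -2.66), at numbers 2 and 3 from the lowest, between Ptn, the heparin-binding growth factor pleiotrophin (log2 -2.91), and Slc6a17 (log2 -2.65). Gpx3 was 1.78-fold lower (log2 -0.82), at number 1293. Groups did not overlap for any of the 3 genes, as for 39.5% of all genes in the higher direction of the first comparison and 39.7% in the lower direction of the second. Both comparisons use the same Cre libraries.

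The mutant libraries, whose values the choice did not use, share those Cre, ctrl and Cre + NFIA libraries as their partners, so they too are described only. Against Cre, Gpx3 stood 1.74-fold higher (log2 0.78) and Il1rl1 1.63-fold higher (log2 0.70) without overlap, as did 17.3% of all genes in that direction, while Prl2c2 overlapped (log2 0.06). Against full-length NFIA the mutant stood 13.2-fold higher for Il1rl1 (log2 3.36), the highest difference of all 12640 genes, 7.68-fold higher for Prl2c2 (log2 2.82, order number 5) and 3.10-fold higher for Gpx3 (log2 1.60, order number 287). Groups of 42.5% of all genes did not overlap in that direction. Against ctrl it stood at log2 3.39 for Gpx3, 2.29 for Prl2c2 and 2.43 for Il1rl1, where 42.7% did not overlap. Full-length NFIA against ctrl was at log2 1.79 for Gpx3, and at -0.53 for Prl2c2 and -0.93 for Il1rl1, so Gpx3 stayed above the ctrl level with full-length NFIA while the others stood below it. In that comparison 21.5% of all genes did not overlap in the higher direction and 18.1% in the lower.

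Over the course of differentiation the genes parted by cell type. In ctrl all 3 stood lower at day 7 than at day 0, at log2 -0.67 for Gpx3, -1.24 for Prl2c2 and -2.08 for Il1rl1, without overlap, as did 38.3% of all genes. In Cre + NFIA they also stood lower without overlap, at log2 -0.43, -0.50 and -1.70, as did 40.9% of all genes. In Cre, Gpx3 (log2 0.94) and Prl2c2 (log2 0.64) stood higher at day 7 without overlap, as did 32.4% of all genes. Il1rl1 stood lower without overlap (log2 -0.75), as did 23.4%. In Cre + NFIA Δpro#3 the change was tested over 24 libraries, so its estimate of spread also draws on the day 7 libraries that chose the genes. In these cells Gpx3 rose 2.92-fold (log2 1.52 ± 0.098 SE, limma adjusted p = 1.07e-10) and Prl2c2 1.46-fold (log2 0.54 ± 0.15 SE, limma adjusted p = 0.00651), where 41.5% of all genes passed. For Il1rl1 the difference was 0.30 with a 95% interval of 0.01 to 0.60 (limma adjusted p = 0.0899), and it passed without mutant day 7 replicate 2 (log2 0.40, limma adjusted p = 0.0462). Of the 4 cell types, Il1rl1 therefore stood lower at day 7 in 3.

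Prl2c2 and Il1rl1 had the most alike patterns of the 3 genes. Across the 24 libraries their log2(FPKM + 1) levels had a Pearson r of 0.89, and 0.92 over the 12 libraries of day 0 and 0.98 over the 12 of day 7. Gpx3 and Prl2c2 had r = 0.50 over all, -0.36 at day 0 and 0.75 at day 7, and Gpx3 and Il1rl1 0.35, -0.51 and 0.70. These libraries share cell types, days and differentiation state, and the values are descriptions. Day 7 values of ctrl, Cre and Cre + NFIA also chose the genes. A high r of Prl2c2 with Il1rl1 at day 7, and so over all libraries, is therefore partly built in by the choice. Among 11461 other genes, the 5 closest to Gpx3 in r were Irak1 (0.93), Afap1l2, Dglucy, Sgsh and Lancl1 (0.90). Irak1 is a kinase of the interleukin 1 receptor pathway and Sgsh a lysosomal sulfatase. The 5 closest to Prl2c2 were Loxl2 (0.95), a lysyl oxidase of the extracellular matrix, Sipa1l2, Slit3, a secreted guidance ligand, Aldh7a1 and Csgalnact1 (0.93). The 5 closest to Il1rl1 were F2r (0.98), the thrombin receptor, Dact1, Plat, the tissue plasminogen activator, Kif3c and Pdgfrb (0.97), the PDGF receptor that marks stromal cells.

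Markers of stromal and of fat cells also differed between the groups at day 7, when 58.8% of all genes passed in Cre against ctrl and 63% in Cre + NFIA against Cre. Of 9 tested markers of stromal precursors and fibroblasts, 8 were higher and 1 lower in Cre than in ctrl, and 7 were lower in Cre + NFIA than in Cre. Their summed level was 1208 to 1319 FPKM in ctrl, 2347 to 2736 in Cre, 1006 to 1132 in Cre + NFIA and 2592 to 3094 in the mutant. Of 6 adipocyte markers all were lower in Cre than in ctrl and higher in Cre + NFIA than in Cre. Their summed level was 19732 to 23142 FPKM in ctrl, 3780 to 8396 in Cre, 18383 to 18541 in Cre + NFIA and 637 to 1764 in the mutant. At day 0 the markers differed between Cre + NFIA and Cre as well. The stromal sum was 3455 to 3611 FPKM in Cre + NFIA and 3898 to 4263 FPKM in Cre, with 5 of the 9 tested markers higher and 3 lower in Cre + NFIA, where 27.6% of all genes passed. The adipocyte sum was 47.3 to 48.0 FPKM against 23.2 to 31.1 FPKM, with 3 of 6 markers higher and none lower. Endothelial and mesothelial markers were low, at sums of 8.95 to 10.2 FPKM against 5.89 to 6.70 FPKM and of 6.06 to 6.75 FPKM against 1.22 to 2.21 FPKM. In a mixed culture fewer cells of a type and less RNA per cell cannot be told apart, and the part of cell composition in the differences of either day was not tested.

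**Figure D3:**
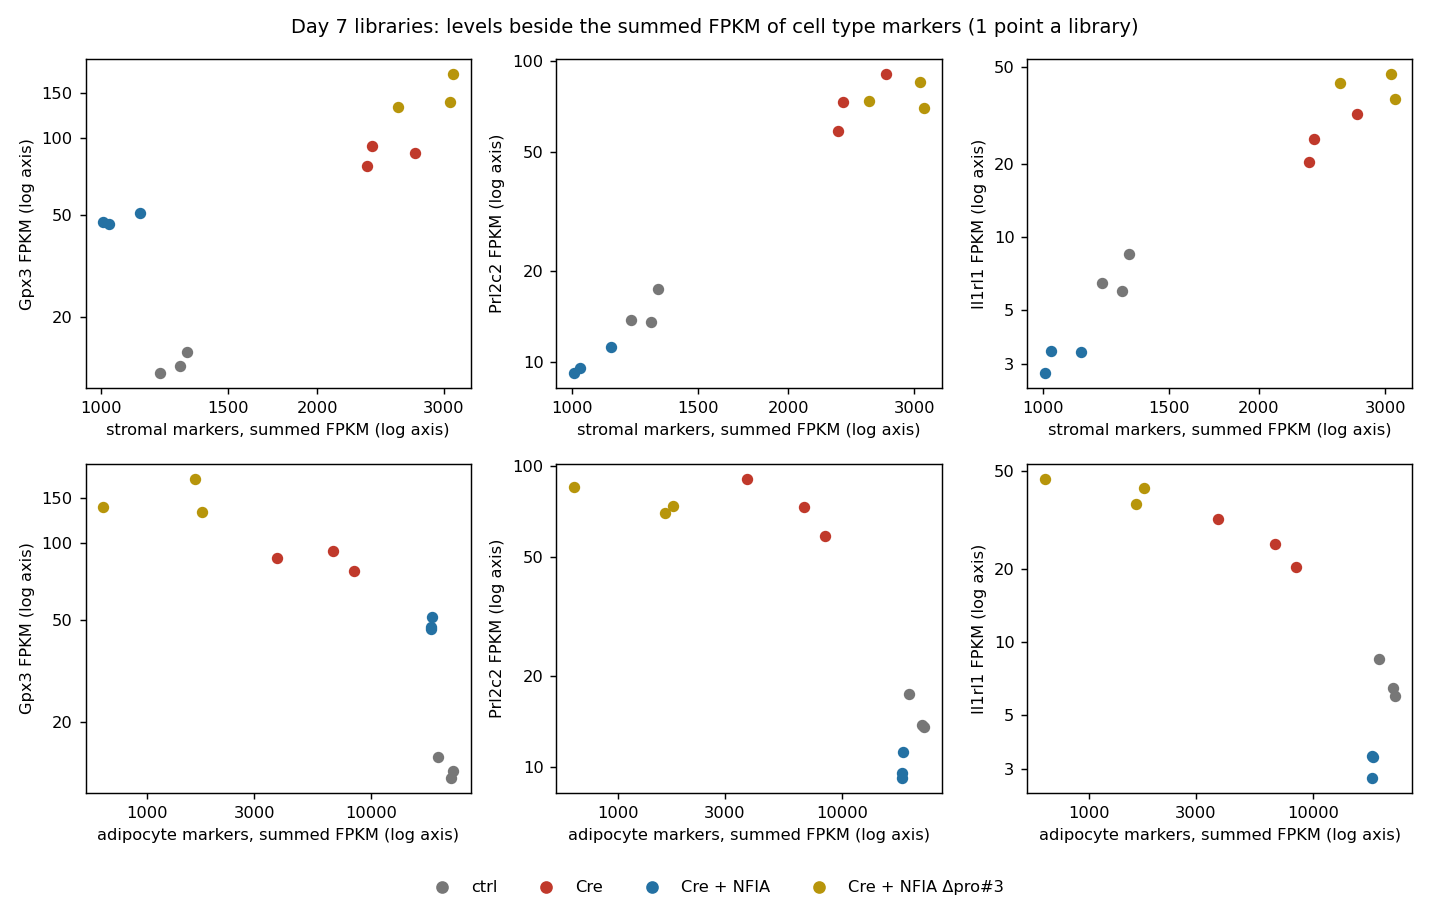
FPKM of Gpx3, Prl2c2 and Il1rl1 (y axes, log) at day 7 against the summed FPKM of stromal markers (upper row) and adipocyte markers (lower row, x axes, log); each point is 1 of 12 libraries. Cre and mutant libraries lie to the right of the other groups in the stromal sum (2347 FPKM and above), and Gpx3 in Cre + NFIA (46.3 to 51.2 FPKM) lies above ctrl at a lower stromal sum (1006 to 1132 against 1208 to 1319 FPKM).

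Gpx3 was chosen for its rise in Cre against ctrl at day 7, the largest of all genes tested. The smaller log2 differences of the other glutathione peroxidases there follow from that choice. In Cre + NFIA against Cre, Gpx8 had a larger fall than Gpx3 (log2 -0.82). Gpx8, a peroxidase of the endoplasmic reticulum, rose in Cre against ctrl at day 7 (log2 1.00, limma adjusted p = 1.81e-06) and fell in Cre + NFIA against Cre (log2 -1.17, limma adjusted p = 2.27e-07). Gpx1, the main cytosolic enzyme, changed by 0.74 and -0.53 on the log2 scale in the same comparisons (limma adjusted p = 1.18e-05 and 0.000112). Gpx7 rose by log2 0.38 (limma adjusted p = 0.0138), a call lost with median-of-ratios size factors (limma adjusted p = 0.0824) or quantile normalization (0.0658). Gpx4, which clears lipid hydroperoxides in membranes, averaged 254 FPKM in Cre against 285 FPKM in ctrl (log2 -0.17, limma adjusted p = 0.0672). Of 14 tested genes for glutathione peroxidases and glutathione supply besides Gpx3, 7 were higher and 5 lower in Cre against ctrl (median log2 0.04, and 0.09 over all genes, of which 58.8% passed), and 5 higher and 6 lower in Cre + NFIA against Cre (median -0.13, and -0.06 over all genes, of which 63% passed). Only 4 were higher in the first under median-of-ratios size factors. Both G6pdx (log2 -0.87 and 0.92), which supplies NADPH, and Gclc (log2 0.84 in the first) were among the largest changes. G6pdx thus fell in Cre against ctrl and rose with full-length NFIA, opposite to Gpx3, and Ggt5, a gamma-glutamyl transferase, fell by log2 -0.93 with NFIA.

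Gpx3 needs selenium for its selenocysteine, and the genes of selenium supply were mixed. Selenop, the secreted selenium carrier, went from 160 FPKM in ctrl to 198 FPKM in Cre at day 7 (log2 0.30, limma adjusted p = 0.002), and its receptor Lrp8 rose from 1.82 to 2.74 FPKM (log2 0.41, limma adjusted p = 0.00376). Of 25 tested genes for selenoproteins and for their synthesis and supply, 10 were higher and 7 lower in Cre against ctrl, or 5 higher with median-of-ratios size factors. In Cre + NFIA against Cre, 8 were higher and 10 lower (58.8% and 63% of all genes passed in either direction in these comparisons). Selenom rose (log2 0.99) and Sephs2, which makes the selenium donor, fell (log2 -0.95) in Cre, and both turned the other way with full-length NFIA (log2 -1.26 and 1.2). Dio3, the enzyme that inactivates thyroid hormone, fell by 1.53 on the log2 scale with full-length NFIA (limma adjusted p = 2.39e-06). In the list of peroxide removal and NRF2 targets, 8 of 20 were higher and 7 lower in Cre against ctrl and 9 were higher and 9 lower in Cre + NFIA against Cre, beside the same 58.8% and 63% of all genes. Its largest changes had both signs, with catalase, Cat, at log2 -1.53 and then 1.95, Sod2 at -1.08 and 1.19, Nqo1 at 0.98 and -1.67, and Gsta4 at 1.00 and -1.90.

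The proliferin relatives of Prl2c2 had few reads. Prl2c3 never had more than 3 reads and Prl2c4 was at 0 reads throughout, while Prl2c5 reached a mean of 1.25 FPKM at most. Prl2c5 stood lower with full-length NFIA at day 7 (log2 -0.88) and higher in Cre against ctrl (log2 0.53), though reads of these genes may be split or lost. It passed the filter of 1 FPKM only through the groups where it was high, so these differences are described with no test. Igf2r, the receptor that binds proliferin, rose in Cre against ctrl (17.0 to 36.9 FPKM, log2 1.07, limma adjusted p = 4.98e-07) and fell with full-length NFIA (log2 -0.88, limma adjusted p = 4.9e-07). Prlr, the prolactin receptor, went the other way at a low level, 0.19 FPKM in Cre and 1.5 FPKM in Cre + NFIA (log2 1.08). The same limit of the filter holds for Prlr, which is also described with no test. Of 10 tested genes of this family and its receptors and signalling, Prl2c5 and Prlr among them, 5 were higher and 3 lower in Cre against ctrl. In Cre + NFIA against Cre the counts were 4 and 4 (58.8% and 63% of all genes passed in these comparisons). The kinase Jak2 was at log2 0.75 and -0.98, and Stat5a, a factor that it activates, at log2 -0.61 and 1.00.

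Of 7 tested interleukin 1 family genes besides Il1rl1, 5 were higher and none lower in Cre against ctrl at day 7, where 58.8% of all genes passed, and 6 were lower and none higher in Cre + NFIA against Cre, where 63% passed. The first count was 3 with median-of-ratios size factors or quantile normalization, and its share is near that of all genes. Il1rap, the partner chain of ST2, rose in Cre against ctrl (2.66 to 4.46 FPKM, log2 0.58, limma adjusted p = 0.000651) and fell with full-length NFIA (log2 -0.87, limma adjusted p = 2.26e-05). Il1r1, the interleukin 1 receptor, rose by log2 0.62 (limma adjusted p = 0.000807) and fell by 1.21 on the log2 scale (limma adjusted p = 3.58e-06). Il1rn, the receptor antagonist, fell by 1.57 on the log2 scale with NFIA (limma adjusted p = 2.61e-05), and its rise in Cre (log2 0.56, limma adjusted p = 0.0304) was lost with median-of-ratios size factors (0.0693). Il18, whose product matures like interleukin 1 beta, rose in Cre (log2 0.92, limma adjusted p = 0.000676). Il33, the ligand of ST2, never had more than 15 reads and was not tested. Only 7 of 21 listed genes of the family were tested. At day 0 1 of the 7 was higher and 3 were lower in Cre + NFIA against Cre, where 27.6% of all genes passed.

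Among genes downstream of the receptors, the largest changes were in chemokines. Ccl2 rose from 131 FPKM in ctrl to 407 FPKM in Cre at day 7 (log2 1.62, limma adjusted p = 5.54e-07) and was at 102 FPKM with full-length NFIA (log2 -1.99, limma adjusted p = 3.24e-08) and 496 FPKM with the mutant. Ccl7 was at log2 1.57 and -2.03 in the first comparisons. Il6 changed by 0.63 and -0.68 and Cxcl1 by 0.21 (limma adjusted p = 0.11) and -0.96. Of 31 tested genes of interleukin 1 receptor signalling and NF-kB targets, 12 were higher and 3 lower in Cre against ctrl and 3 higher and 16 lower in Cre + NFIA against Cre. The share that passed was below the 58.8% of all genes in the first comparison and near the 63% in the second. Irak2, an adaptor kinase, went the other way (log2 -0.61 and 0.36), as did Tnfaip3 in Cre (log2 -0.43), which restrains NF-kB, and Chuk rose with NFIA (log2 0.57). The AP-1 list also holds genes that growth factors induce. Of 28 tested, 16 were higher and 1 lower in Cre against ctrl (median log2 0.40), and 23 lower and 0 higher in Cre + NFIA against Cre (median log2 -0.71), with 1 higher under median-of-ratios size factors, quantile normalization or voom, with all 24 libraries in 1 model, or without Cre replicate 1 or 2. The share that passed was near the 58.8% of all genes in the first comparison and above the 63% in the second. Fosl1, a subunit of AP-1, was at log2 0.72 (limma adjusted p = 1.21e-05) and -0.92, Junb at 0.78 and -1.11, Jun at 0.20 (limma adjusted p = 0.0935) and -0.25 (limma adjusted p = 0.253 under median-of-ratios size factors), and Fos at 0.08 (limma adjusted p = 0.689) and -0.25 (limma adjusted p = 0.173). Plau, the urokinase gene, and Cyr61 were at log2 1.26 and 1.19 in Cre, and Ctgf and Hmga2 at -1.89 and -1.66 with NFIA, while Dusp6 alone fell in Cre (log2 -0.63).

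**Figure D4:**
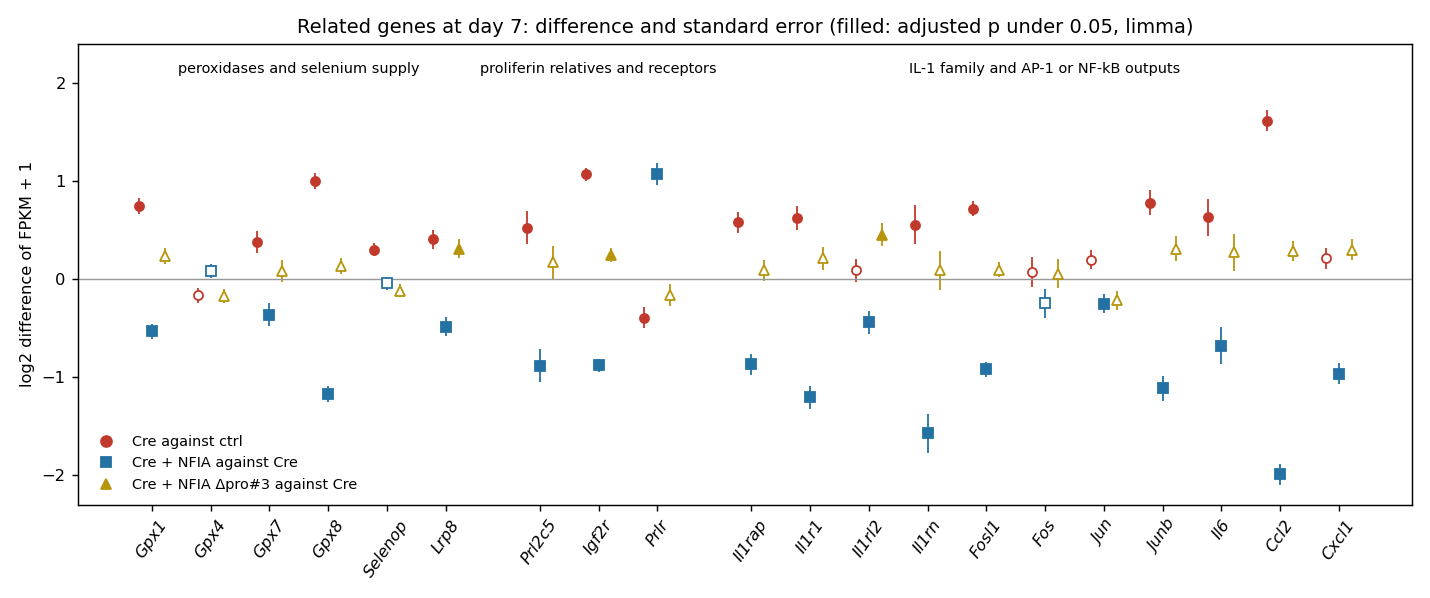
Log2 differences at day 7 (y axis, with standard errors) of 20 related genes for 3 comparisons, with circles for Cre against ctrl, squares for Cre + NFIA against Cre and triangles for Cre + NFIA Δpro#3 against Cre; filled symbols passed the threshold. Ccl2 (log2 1.62 and -1.99) has the largest changes, and Gpx4 and Fos passed in neither of the first comparisons. Prl2c5 and Prlr passed the filter on low values only through the groups where they were high.

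In the mutant against Cre at day 7 17.7% of all genes passed, and the lists differed. The interleukin 1 family had 1 of 7 higher, Il1rl2 (log2 0.45, limma adjusted p = 0.0197), and none lower, and the AP-1 list 7 of 28 higher and 0 lower. The adipocyte list had 15 of 15 lower in this comparison, 10 of them by at least 3-fold, as were 0.625% of all genes in either direction. In Cre against ctrl 15 of 15 were lower and 10 by at least 3-fold (1.51% of all genes), and in Cre + NFIA against Cre 15 of 15 were higher and 9 by at least 3-fold (3.63%). Pparg, the master regulator of fat cells, had day 7 means of 52.0 FPKM in ctrl, 22.4 in Cre, 60.0 in Cre + NFIA and 9.02 in the mutant. Fabp4, a fatty acid carrier, had means of 17544, 4963, 14618 and 1042 FPKM likewise, and under quantile normalization its differences in Cre against ctrl and in Cre + NFIA against Cre did not pass (limma adjusted p = 0.379 and 0.366). The largest changes on that list were Cfd (log2 -2.71) and Retn (log2 -2.39) in Cre, and Scd1 (log2 2.99) and Retn (log2 2.92) with full-length NFIA.

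The genes next to Gpx3, Prl2c2 and Il1rl1 had no single direction. Tnip1, which ends 410 bases from Gpx3 on the opposite strand and encodes a protein that restrains NF-kB, went from 25.4 FPKM in ctrl to 17.8 FPKM in Cre at day 7 (log2 -0.50, limma adjusted p = 0.000139) and rose with full-length NFIA (log2 0.42, limma adjusted p = 0.000414). Anxa6 and Ccdc69 beyond it also fell in Cre (log2 -0.76 and -1.59) and rose with NFIA (log2 0.78 and 1.18). Hint1, Lyrm7 and Cdc42se2 on the other side were at log2 -0.36, -0.21 and 0.03 in Cre. Around Prl2c2, its relative Prl2c5, 177323 bases away, stood higher in Cre and lower with NFIA (log2 0.53 and -0.88), near the filter and with no test. Gpr137b, 352231 bases away, was also higher in Cre and lower with NFIA (log2 0.74 and -0.82). Nid1, Ero1lb and Gpr137b-ps changed by 0.50 or less in Cre. Around Il1rl1, Il1r1 followed the same direction, and Il1rl2, the next gene, was at log2 0.09 and -0.44. Il18r1, which starts 137 bases beyond Il1rl1 on the same strand, never had more than 4 reads, and Il18rap, Slc9a4 and Il1r2 had at most 25 reads.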

How the data were processed

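RNA-seq libraries (stranded mRNA) of 24 samples in 8 groups were used. Per the paper's methods and the submitters' notes, the authors aligned reads to mm9 with STAR 2.5.3a, kept reads that aligned to 1 place, counted reads with regard to strand and scaled them to gene length and library size. The gene annotation is not given in the sources used here. The deposited values are FPKM. Reads and totals were recovered from FPKM and gene length, and 100% of values were whole within 0.05 reads.

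The 12640 genes that reached an FPKM of 1 in 3 or more libraries were tested on log2(FPKM + 1), pseudocount 1, by limma 3.58.1 (R 4.3.3, trended prior, two-sided), over the 12 libraries of a day or all 24 between days. P-values were adjusted by Benjamini-Hochberg over all 12640 genes. The tests were tested on simulated data. The chi-square per degree of freedom of 24 replicate pairs was 2.17 to 15.1, so none repeated another. Related genes, neighbours (3 on each side) and markers come from fixed lists. Genes most like each member are the 5 with the highest Pearson r among tested genes of at least 200 bases. List genes named include ones with the largest changes, and others were picked from the lists by hand. The members and lists were chosen with earlier results of these data known. Promoter stretches are from RefSeq, transcripts from GENCODE vM1. Alternatives were pseudocounts of 0.1 and 5, 2 other scalings, voom on recovered reads, 2 filters, other model scopes, no trend, a replicate block and each library left out.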

Additional observations from a re-analysis of the deposited data

Results flagged for a closer look

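These results were picked out because all libraries of a group lay above the group compared in some setting and below it in another. The libraries are not paired, and the differences between the settings were not tested. Groups without overlap, in either direction, were common, at 32.8% to 75.3% of all genes in the comparisons listed here. Day 7 values of ctrl, Cre and Cre + NFIA were also used to choose the genes. On the log2(FPKM + 1) scale, Cre + NFIA against Cre was 0.56 for Gpx3 at day 0 and -0.82 at day 7. The mutant against Cre was -0.35 for Il1rl1 at day 0 and 0.70 at day 7, and the mutant against Cre + NFIA was -0.35 for Gpx3 at day 0 and 1.60 at day 7. From day 0 to day 7 Gpx3 changed by -0.67 in ctrl, 0.94 in Cre, -0.43 in Cre + NFIA and 1.52 in the mutant. Over the same interval Prl2c2 changed by -1.24 in ctrl, 0.64 in Cre, -0.50 in Cre + NFIA and 0.54 in the mutant.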

How the results depend on the processing

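Of the tested differences at day 0 and over time, most kept their direction and side of the threshold, and the cause of the changes was not tested. Il1rl1 in Cre against ctrl at day 0 (log2 0.40) passed with median-of-ratios size factors (0.40), voom (0.42) and a mean FPKM of at least 5 (0.40), and without single libraries lay at 0.34 to 0.52. In the mutant against Cre at day 0 Gpx3 passed with only the groups compared in the model (0.21), and Il1rl1 did not pass without a filter (-0.35), with all 24 libraries (-0.35) or with the replicate block (-0.35, limma adjusted p = 0.0571), lying at -0.42 to -0.30 without single libraries. Against Cre + NFIA the mutant's Gpx3 lay at -0.39 to -0.33. Against ctrl its Prl2c2 lay at 0.41 to 0.66, and its Il1rl1 turned to -0.030 with quantile normalization and lay at -0.015 to 0.17 without single libraries (-0.014 without ctrl replicate 3). Il1rl1 over time in the mutant passed with voom (0.31) or only the groups compared (0.30), and lay at 0.23 to 0.40. Prl2c2 in the mutant against Cre at day 7 lay at -0.096 to 0.22, -0.020 without mutant replicate 1. Replicate numbers did not pair the libraries (no comparison had every same-numbered pair over 0.1), and the block changed no other call of the 3 genes.

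At day 7 a pseudocount of 5 gave 2.32 for Gpx3 and 1.35 for Il1rl1 in Cre against ctrl, -2.38 for Prl2c2 and -1.90 for Il1rl1 in Cre + NFIA against Cre, 2.44 and 2.52 in the mutant against Cre + NFIA, 1.55 for Gpx3 and -0.55 for Il1rl1 in Cre + NFIA against ctrl, and 3.07, 2.03 and 1.97 for Gpx3, Prl2c2 and Il1rl1 in the mutant against ctrl. For Il1rl1 a pseudocount of 0.1 gave -2.96 and 3.68, and voom -3.0, 3.72 and -1.13. Median-of-ratios size factors gave 2.48 and -0.71 for Gpx3, and moved the median of all genes by -0.113 in Cre against ctrl, -0.105 in the mutant against Cre + NFIA and -0.129 in the mutant against ctrl. No listed or neighbouring gene that passed turned direction under median-of-ratios size factors, quantile normalization or voom in Cre against ctrl, Cre + NFIA against Cre or the mutant against Cre at day 7. Among these genes and those most like a member, calls were lost in the same 3 comparisons. The losses were 14, 10 and 2 under median-of-ratios size factors, 7, 7 and 0 under quantile normalization, and 1, 0 and 0 under voom.

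Genes past the threshold in Cre against ctrl at day 0 numbered 421, 32 with only the groups compared, 636 with all 24 libraries and 175 to 453 without single libraries. In the mutant against Cre at day 0 they numbered 2311 (1441 to 2011), in the mutant against Cre + NFIA 1275 (842 to 983), and in the mutant against Cre at day 7 2238, 1226 with only the groups compared and 1309 to 2502. Genes also changed 3-fold at day 7 numbered, with pseudocounts of 0.1 and 5 and with voom, 433, 72 and 507 in Cre against ctrl, 912, 163 and 996 in Cre + NFIA against Cre, and 196, 27 and 217 in the mutant against Cre, where 79 were found and 42 to 128 without single libraries. With 3 libraries a group, differences near the threshold rest on single libraries.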
